A study of Homo sapiens with 13 samples.

Results

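The glucocorticoid receptor, encoded by NR3C1, and 8 genes that respond to it (TSC22D3, FKBP5, PER1, ZBTB16, BTG1, DUSP1, KLF9 and ZFP36L2) were followed across a panel of acute lymphoblastic leukemia (ALL) cell lines. For each gene the probe set annotated to that symbol alone with the highest mean over the 13 arrays was taken. This gave values for 8 of the 9 listed genes, out of 18568 genes with such a probe set. PER1, a clock gene, was not analysed here because its 3 probe sets also carry the symbol of a microRNA gene, MIR6883.

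The study asked how ALL cells resist the antifolate methotrexate, and the arrays measured basal mRNA in untreated cells, with 1 array per line. Of the lines, 6 are B-cell precursor ALL (BCP-ALL), namely Nalm16, Nalm30, Nalm6, 697, RS4,11 and REH, and 7 are T-cell ALL (T-ALL), namely Jurkat, Molt4, TALL-1, P12-ICHIKAWA, CCRF-CEM, HPB-ALL and ALL-SIL. All were grown in RPMI-1640 with fetal bovine serum, and neither methotrexate nor a glucocorticoid was given before RNA extraction. Each name stands for 1 established line, so a group is a set of different lines and not repeats of a culture.

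The glucocorticoid receptor is a nuclear hormone receptor that waits in the cytoplasm in a complex with HSP90 and its cochaperones, moves to the nucleus when it binds cortisol or a drug such as dexamethasone or prednisone, and there switches genes on or off. In lymphoid precursors this program ends in cell cycle arrest and apoptosis, which is why glucocorticoids are a mainstay of ALL treatment. Low receptor levels and loss of receptor function are known routes to steroid resistance. Serum contains some steroid hormone, so basal levels of response genes reflect whatever receptor activity the medium allows together with every other input to those genes. The arrays measure mRNA only and say nothing of receptor protein, of changes in its coding sequence or of the response to a drug.

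Values are log2 of the signal after 16 was added, so the lowest possible value is 4, and a gene within 1 log2 unit of it is called near the floor. A difference of 1 unit is close to a doubling for strongly expressed genes and understates the change for weak ones. Mean levels of marker genes followed the lineage labels. The mean of 7 B-cell precursor markers was 9.88 to 10.51 in BCP-ALL and 4.42 to 5.30 in T-ALL, and the mean of 7 T-cell precursor markers was 8.81 to 10.35 in T-ALL and 4.73 to 5.40 in BCP-ALL. The mean of 7 monocyte and granulocyte markers was 5.02 to 6.14 in BCP-ALL and 5.00 to 5.18 in T-ALL, and that of 4 stromal and epithelial markers was 5.03 to 5.31 and 4.89 to 5.61. Single markers departed from these means. Over the BCP-ALL lines the myeloid genes MPO and LYZ reached 12.11 and 11.2, the T-cell gene LCK reached 10.03, and the B-cell gene VPREB1 fell to 4.15. Over the T-ALL lines CD2 fell to 4.51. Some lines stood apart or close together. Nalm16 and Nalm30 had 8.82% and 6.98% of probe sets at the floor, against 2.50% to 5.01% in the other lines, and their arrays correlated at r = 0.959. P12-ICHIKAWA and TALL-1 correlated at r = 0.993, with a median absolute difference of 0.113 and a 95th percentile of 0.413 log2 units over expressed genes. With no technical replicates, that 95th percentile served as the nearest available yardstick for the error of a single level.

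NR3C1, on chromosome 5, was expressed in 11 of the 13 lines and at the floor in Nalm16 and Nalm30. In BCP-ALL its level was 11.34 in RS4,11, 10.17 in Nalm6, 9.87 in 697 and 8.51 in REH, against 4.0 in each of Nalm16 and Nalm30. In T-ALL it was 10.09 in CCRF-CEM, 9.96 in HPB-ALL, 9.93 in P12-ICHIKAWA, 9.81 in TALL-1, 9.64 in ALL-SIL, 8.42 in Jurkat and 8.20 in Molt4. Of the 12 gaps between neighbours in this order, 3 exceeded the yardstick: RS4,11 stood 1.17 above Nalm6, ALL-SIL stood 1.14 above REH, and Molt4 stood at least 4.20 above Nalm30, which is at the floor. The lines thus fell into RS4,11 at the top, 7 lines from 9.64 to 10.17 whose neighbours do not differ beyond the yardstick, 3 lines from 8.20 to 8.51 likewise, and the pair at the floor. The spread of NR3C1 over the lines (SD 2.28) was larger than that of 98.5% of the expressed genes.

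The 4 NR3C1 probe sets placed the same lines at the floor. Nalm16 was at 4.0 by all of them, and Nalm30 at 4.0 to 4.09. In the other 11 lines the lowest value was 8.20 for each of the leading 2 probe sets, 7.70 for the next and 5.96 for the weakest. Correlations of the other 3 with the chosen probe set over the 13 lines were 0.9998, 0.996 and 0.932.

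**Figure D1:**
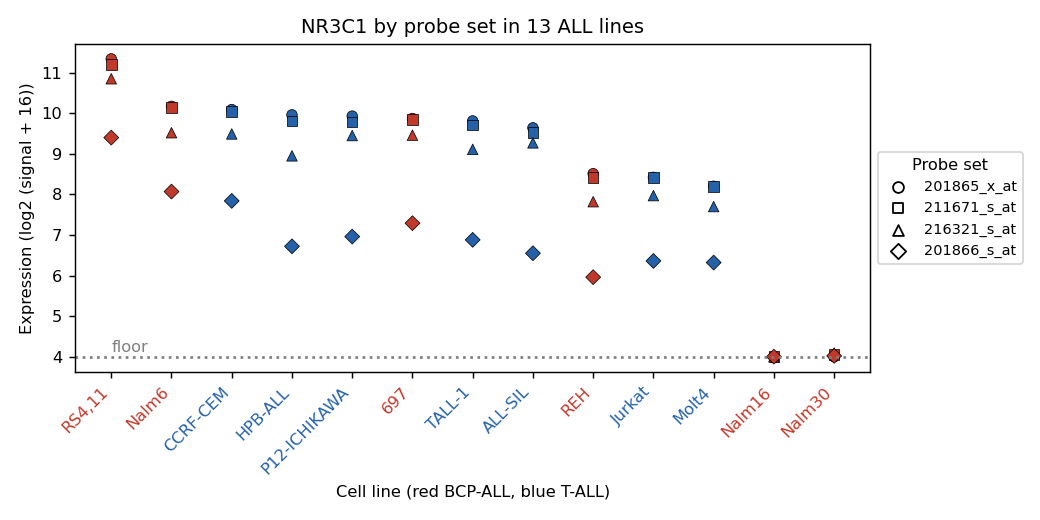
NR3C1 level (vertical axis, log2 of signal plus 16) in each of the 13 lines (horizontal axis, ordered by the chosen probe set), with a symbol for each of 4 probe sets, red for BCP-ALL and blue for T-ALL. All 4 symbols lie between 4.0 and 4.09 in Nalm16 and Nalm30, and at 5.96 or above in the other 11 lines.

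Few probe sets shared this pattern at the bounds used here. Of 4000 probe sets at 8 or more in the 11 other lines, 4 were under 4.1 in both Nalm16 and Nalm30. These were 2 of NR3C1 and 2 of CTSC, which encodes the lysosomal protease cathepsin C. Both bounds lie close to the levels of NR3C1 itself, so the count depends on them and is a description. DPY19L3, also at 4.0 in Nalm16 and Nalm30, falls outside them because it was at 6.84 to 7.99 elsewhere. The larger share of floor values on these 2 arrays moves with the receptor result, and so do some housekeeping genes. Of 9 housekeeping genes, 5 had their lowest level in one of these lines (ACTB, HPRT1, TBP and PGK1 in Nalm16, HSP90AB1 in Nalm30). All 9 were above the floor there, with ACTB at 12.54 and 12.79 and TBP, a moderately expressed gene, at 7.45 and 7.50 in Nalm16 and Nalm30. The part of array or RNA quality in the receptor result was not tested. Among the neighbours of NR3C1 on the chromosome, the nearest gene kept on one side, ARHGAP26, was at 5.26 in Nalm16 and 6.08 in Nalm30, against 5.06 to 6.16 in the other lines. The nearest on the other side, HMHB1, was at 6.35 and 7.05, against 4.01 to 7.50 elsewhere.

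Nalm16 and Nalm30 also had little mRNA for the mineralocorticoid receptor NR3C2, which binds cortisol as well. NR3C2 was at 4.09 in Nalm16 and 4.11 in Nalm30, against 5.09 to 5.73 in the other 4 BCP-ALL lines and 4.0 to 4.52 in T-ALL. Its difference between lineages, -0.80 (SE 0.277), did not pass (limma adjusted p = 0.0963). NR3C2 entered that fit through BCP-ALL lines alone, by the filter on low expression, so its difference is given as a description.

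TSC22D3, on the X chromosome, encodes GILZ, a leucine zipper protein that is among the most direct transcriptional targets of the receptor in lymphocytes. Its level in BCP-ALL was 10.53 in Nalm30, 10.41 in Nalm16, 8.66 in RS4,11, 8.59 in Nalm6, 8.09 in REH and 6.46 in 697. In T-ALL it was 8.72 in CCRF-CEM, 7.10 in HPB-ALL, 6.20 in P12-ICHIKAWA, 5.55 in TALL-1, 5.38 in ALL-SIL, 4.90 in Jurkat and 4.19 in Molt4. The highest levels were thus in the 2 lines with NR3C1 at the floor, 1.69 above the next line, CCRF-CEM. The groups overlapped through CCRF-CEM and HPB-ALL on one side and 697 on the other, and 7 of the 12 gaps between neighbours exceeded the yardstick. These include the gap of 0.659 between P12-ICHIKAWA and TALL-1, the pair that gave the yardstick, so for TSC22D3 it is a loose guide. A second probe set correlated with the chosen one at 0.963 and was also highest in Nalm30 (7.69) and Nalm16 (7.25), while the remaining one stayed at 4.46 to 5.01 in all 13 lines.

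BTG1, on chromosome 12, encodes an antiproliferative protein whose loss is known in ALL and has been tied to poor steroid response. It shared the top of its order with TSC22D3. BTG1 was at 11.61 in Nalm16 and 11.19 in Nalm30, and the other BCP-ALL lines held 10.04 (Nalm6), 9.75 (RS4,11), 9.45 (697) and 8.61 (REH). In T-ALL it was at 10.31 in ALL-SIL, 10.27 in HPB-ALL, 9.34 in P12-ICHIKAWA, 9.09 in TALL-1, 8.77 in CCRF-CEM, 8.33 in Molt4 and 8.28 in Jurkat. No line was near the floor, Nalm30 stood 0.886 above ALL-SIL, and from ALL-SIL down no gap between neighbours exceeded the yardstick. A second probe set also placed Nalm16 (10.99) and Nalm30 (10.95) highest, and the third was near the floor in all lines.

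FKBP5, on chromosome 6, encodes the cochaperone FKBP51, which is induced by the receptor and lowers its affinity for hormone. It was strongly expressed in every line and varied little, with an SD of 0.488, larger than that of 46.1% of expressed genes. In BCP-ALL the lowest, median and highest levels were 8.82, 9.89 and 10.23, and in T-ALL 9.31, 9.99 and 10.82. Nalm16 was the lowest line at 8.82, 0.487 below Jurkat, whereas Nalm30 at 9.69 lay within the other lines. The weakest of the 3 probe sets was lowest in Nalm16 (5.53) and Nalm30 (6.27), and the middle one was lowest in Jurkat (8.11), followed by Nalm16 (8.19) and Nalm30 (8.23). The line with the highest level, ALL-SIL at 10.82, was highest by 2 of the 3 probe sets.

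DUSP1, on chromosome 5, encodes a phosphatase that switches off MAP kinases and is induced by glucocorticoids as well as by growth factors and stress. Its levels separated the lineages completely. In BCP-ALL DUSP1 was at 11.91 in REH, 11.54 in Nalm30, 11.40 in Nalm16, 10.53 in 697, 10.24 in RS4,11 and 10.20 in Nalm6. In T-ALL it was at 8.01 in HPB-ALL, 7.20 in Jurkat, 6.61 in Molt4, 6.44 in CCRF-CEM, 5.47 in TALL-1, 5.28 in ALL-SIL and 5.20 in P12-ICHIKAWA. The gap between the lowest BCP-ALL line and the highest T-ALL line was 2.19. A second probe set gave 6.68 to 8.85 in BCP-ALL and 4.0 to 4.47 in T-ALL. The third was at 4.98 to 5.54 in all lines and did not separate them.

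Because DUSP1 showed the widest lineage difference of the group, the stretch before its start is shown, from RefSeq (GRCh38.p14, minus strand, chr5:172771196-172771445, the 250 bases upstream of the annotated start). Capitals mark 2 motifs found by a search of both strands, the cyclic AMP response element TGACGTCA and the E-box CACGTG.
DUSP1 upstream: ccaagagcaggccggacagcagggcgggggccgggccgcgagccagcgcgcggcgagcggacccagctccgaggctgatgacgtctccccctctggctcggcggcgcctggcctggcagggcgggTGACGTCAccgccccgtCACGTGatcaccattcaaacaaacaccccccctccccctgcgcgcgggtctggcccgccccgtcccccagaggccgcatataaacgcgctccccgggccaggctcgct
The response element begins at position -125 and the E-box at -108. Of 35116 RefSeq promoter windows of 300 bases (250 before and 50 after a start), 1.85% held the former and 7.26% the latter. The palindromic glucocorticoid response element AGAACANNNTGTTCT was in 0.00285% of all windows, a single one, and in none of the windows of NR3C1, TSC22D3, FKBP5, BTG1, DUSP1, KLF9 or PER1. ZBTB16 and ZFP36L2 had no window in the table. A single arm of it, AGAACA, in 14.8% of all windows, was in 1 of the 2 FKBP5 windows. The AP-1 motif TGACTCA, in 4.95% of all windows, was in none of those genes' windows. These are matches of letters in a short window and were not tested against the levels.

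ZBTB16, on chromosome 11, encodes the zinc finger repressor PLZF and is a sensitive glucocorticoid target in many tissues. It was weak throughout. All 6 BCP-ALL lines were near the floor (lowest 4.48, median 4.65, highest 4.75), as were 2 T-ALL lines, ALL-SIL at 4.80 and Molt4 at 4.79. The other T-ALL lines were at 6.28 (Jurkat), 5.88 (TALL-1), 5.73 (P12-ICHIKAWA), 5.49 (CCRF-CEM) and 5.34 (HPB-ALL). The groups did not overlap, but the gap between Molt4 and the next line, REH, did not exceed the yardstick. ZBTB16 has 1 probe set here, and it passed the filter on low expression through the T-ALL lines alone.

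KLF9, on chromosome 9, encodes a Krüppel-like factor induced by the receptor. Its chosen probe set was near the floor in all 13 lines, at 4.55 to 4.87, and did not pass the filter on low expression. Another of its 5 probe sets, with a lower mean, was at 5.09 to 5.88 in 5 BCP-ALL lines, 4.02 in REH and 4.0 to 4.23 in T-ALL.

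ZFP36L2, on chromosome 2, encodes a protein that binds AU-rich elements and promotes the decay of the mRNAs that carry them. It was strong in every line. In BCP-ALL the lowest, median and highest levels were 8.66, 10.47 and 11.00, and in T-ALL 9.37, 11.01 and 11.41. The lowest lines were 697 at 8.66, Nalm6 at 9.17 and HPB-ALL at 9.37, 0.940 below the next line, Jurkat. The leading 3 probe sets all placed 697 lowest and P12-ICHIKAWA highest.

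The design allowed 1 comparison between groups, T-ALL against BCP-ALL. DUSP1 and TSC22D3 were lower in T-ALL, while the receptor, FKBP5, BTG1 and ZFP36L2 did not pass the test. ZBTB16 was listed as higher, but it entered the fit through the T-ALL lines alone, so its call is given as a description. Over all 12560 genes kept, 958 passed (limma, Benjamini-Hochberg adjusted p under 0.05), which is 7.63%, with 3.96% higher and 3.67% lower in T-ALL. Of the 7 genes of the receptor group in that fit, DUSP1 and TSC22D3 passed, and ZBTB16 passed with the limit just given. The ranges of the lines did not overlap for 3.69% of all genes, and for 2 of the 7, DUSP1 and ZBTB16.

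DUSP1 was at 10.97 ± 0.735 (SD, n = 6) in BCP-ALL and 6.32 ± 1.06 (SD, n = 7) in T-ALL, a difference of -4.65 (SE 0.477, limma adjusted p = 3.03e-05). An exact permutation test over all 1716 splits of the lines, two-sided, gave p = 0.0005828, the smallest it can give. The limma call held whichever line was left out (adjusted p 9.9e-06 to 0.000154).

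TSC22D3 was at 8.79 ± 1.53 (SD, n = 6) in BCP-ALL and 6.01 ± 1.51 (SD, n = 7) in T-ALL, a difference of -2.78 (SE 0.770, limma adjusted p = 0.0428, exact permutation p = 0.009907). The call was close to the threshold. It was lost when any of 9 of the 13 lines was left out, and also without Nalm16 and Nalm30, the lines with the most TSC22D3, where the difference was -1.95 (adjusted p = 0.197). With its second probe set the difference was -1.72 (SE 0.436, limma adjusted p = 0.0291). By the chosen probe set 2 T-ALL lines, Jurkat and Molt4, are near the floor, and by the second 5 T-ALL lines are, at 4.24 to 4.53.

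ZBTB16 was at 4.64 ± 0.112 (SD, n = 6) in BCP-ALL and 5.47 ± 0.550 (SD, n = 7) in T-ALL, a difference of 0.83 (SE 0.231, limma adjusted p = 0.0429). With no filter on low expression the adjusted p was 0.0522, and the call was also lost when any of 11 of the 13 lines was left out. Of the 13 values 8 are near the floor, all BCP-ALL values among them, so the size and its p do not settle whether the lineages differ.

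NR3C1 was at 7.98 ± 3.21 (SD, n = 6) in BCP-ALL and 9.44 ± 0.781 (SD, n = 7) in T-ALL, and the difference of 1.45 (SE 1.13) did not pass (limma adjusted p = 0.433, exact permutation p = 0.3403). It was 0.66 without Nalm16 or without Nalm30 and turned to -0.54 without both, and did not pass in those fits either. The wide BCP-ALL spread held both the highest line, RS4,11, and the pair at the floor. BTG1 differed by -0.91 (SE 0.499, limma adjusted p = 0.266), ZFP36L2 by 0.65 (SE 0.418, limma adjusted p = 0.343) and FKBP5 by 0.25 (SE 0.267, limma adjusted p = 0.583). KLF9 differed by 0.03 (SE 0.0800, limma adjusted p = 0.883) in the fit without a filter. The KLF9 probe set with values above the floor in 5 BCP-ALL lines differed by -1.27 (SE 0.258, limma adjusted p = 0.00861). It was noticed for that pattern and is near the floor in REH and all T-ALL lines, so this is given as a description.

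**Figure D2:**
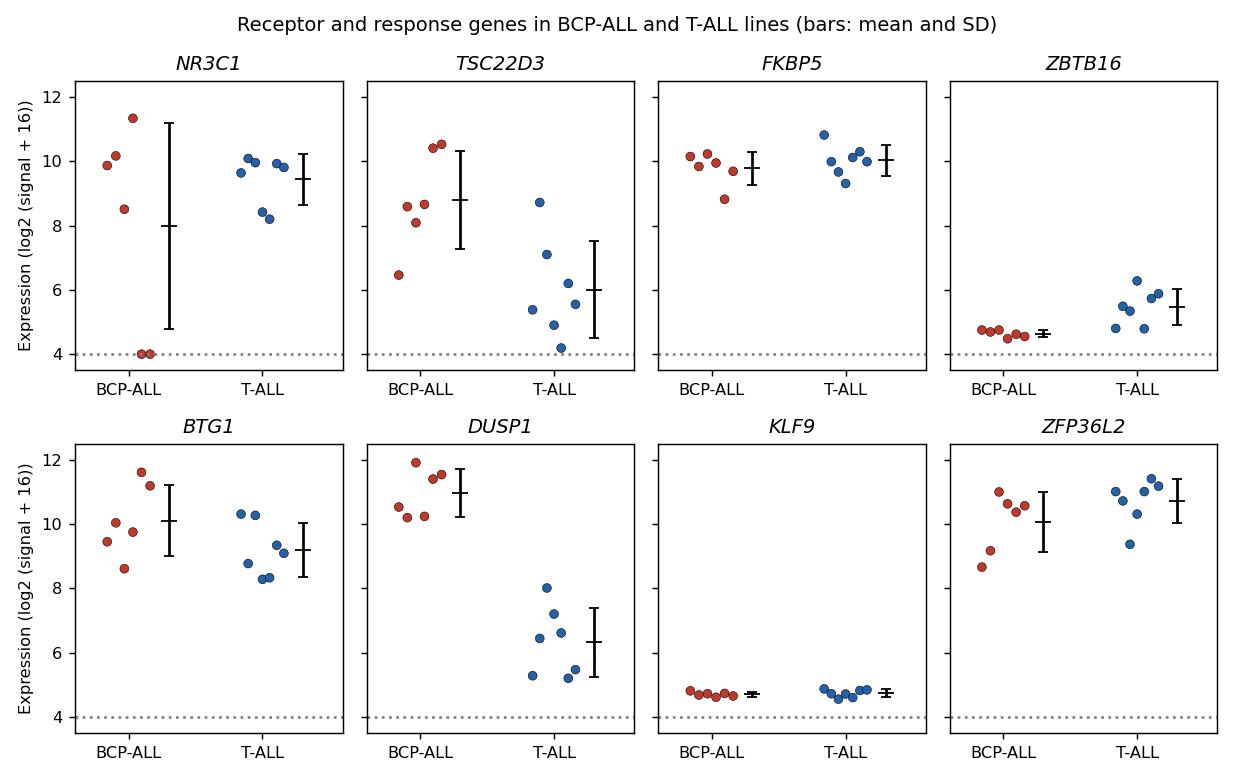
Level of each gene (vertical axis, log2 of signal plus 16) in the 6 BCP-ALL lines (red) and the 7 T-ALL lines (blue), with 1 point per line, bars for the mean and SD, and the floor dotted. DUSP1 separates the lineages by 2.19 log2 units, NR3C1 is at 4.0 in 2 BCP-ALL lines, and KLF9 stays between 4.55 and 4.87.

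Whether basal levels of the response genes followed the receptor was asked next. Because Nalm16 and Nalm30 form a cluster of their own in NR3C1, no correlation over all 13 lines is given for these genes. In the limma fit of each gene on the NR3C1 level over 13 lines, 2939 of 12559 genes passed (23.4%), 2038 with a positive and 901 with a negative slope. None of the 6 response genes in that fit passed, with adjusted p from 0.107 for FKBP5 to 0.805 for ZFP36L2. Of the 6, 2 (FKBP5 and BTG1) were under an unadjusted limma p of 0.05, against 4604 of all 12559 genes. The slopes were 0.12 (SE 0.0524) for FKBP5, -0.25 (SE 0.108) for BTG1, -0.51 (SE 0.278) for DUSP1, 0.07 (SE 0.0712) for ZBTB16 and -0.04 (SE 0.103) for ZFP36L2. Without Nalm16 and Nalm30, which are also the 2 lines farthest from the median NR3C1, 0 of 12559 genes passed (0%), with 673 under an unadjusted limma p of 0.05. The 13-line fit therefore rests on a contrast of those 2 lines with the other 11.

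Within the 11 lines that express the receptor, TSC22D3 and BTG1 had positive slopes on NR3C1 that did not pass. TSC22D3 changed by 1.09 log2 units per log2 unit of NR3C1 (SE 0.424), and BTG1 by 0.55 (SE 0.185). After adjustment over all genes the limma p was 0.921 for TSC22D3 and 0.912 for BTG1. Both are among the 673 of 12559 genes under an unadjusted limma p of 0.05 in these 11 lines. Over the 13 lines both slopes were negative, at -0.43 (SE 0.219) and -0.25, so the sign for these genes depends on whether the pair at the NR3C1 floor is included.

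The correlation of TSC22D3 with NR3C1 over the 11 lines was r = 0.614 (permutation p = 0.0446) and rho = 0.827 (permutation p = 0.00317). Leaving out RS4,11 and Molt4, the lines farthest from the median NR3C1 among these 11, gave r = 0.303, so the linear relation rests on them. Within the 7 T-ALL lines TSC22D3 and NR3C1 had the same order, from CCRF-CEM through HPB-ALL, P12-ICHIKAWA, TALL-1, ALL-SIL and Jurkat to Molt4 (rho = 1, exact permutation p = 0.0003968), with r = 0.775 (exact permutation p = 0.0456). Averaging the closely similar P12-ICHIKAWA and TALL-1 left rho = 1 over 6 values (exact permutation p = 0.002778). The 4 neighbours from CCRF-CEM to TALL-1 differ in NR3C1 by less than the yardstick, and Jurkat and Molt4, at the bottom, are near the floor in TSC22D3. With the second TSC22D3 probe set, near the floor in 5 T-ALL lines, rho was 0.618 over the 11 lines and 0.429 within T-ALL. The BCP-ALL lines were too few above the floor for a correlation of their own.

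For BTG1 the correlation over the 11 lines was r = 0.681 (permutation p = 0.0203) and rho = 0.582 (permutation p = 0.0658), and r = 0.644 without RS4,11 and Molt4. Its second probe set gave r = 0.678. Within T-ALL r was 0.646 (exact permutation p = 0.0944) and rho was 0.393 (exact permutation p = 0.396). The other 5 response genes had r between -0.253 (ZBTB16) and 0.0983 (DUSP1) over the 11 lines, with permutation p of 0.454 or more. In all, 7 genes were set against NR3C1 in this way, so the permutation p-values are raw, and those adjusted over all genes are the limma values above.

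**Figure D3:**
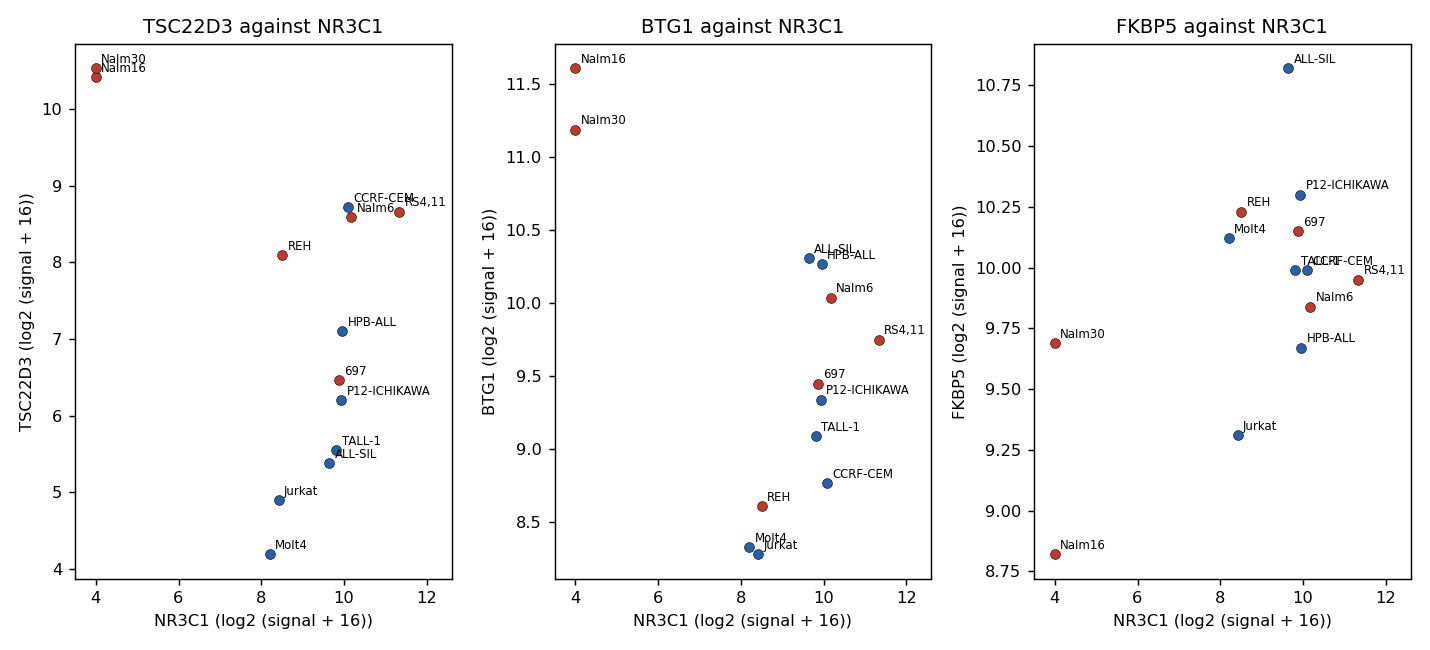
Levels of TSC22D3, BTG1 and FKBP5 (vertical axes, log2 of signal plus 16) against NR3C1 (horizontal axes, same scale), with 1 labelled point per line, red for BCP-ALL and blue for T-ALL. Nalm16 and Nalm30, with NR3C1 at 4.0, hold the highest TSC22D3 (10.41 and 10.53) and BTG1 (11.61 and 11.19), while FKBP5 is lowest in Nalm16 (8.82).

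The response genes did not move as a block. Over the 13 lines TSC22D3 correlated with DUSP1 at 0.722 and with BTG1 at 0.667. Without Nalm16 and Nalm30 these were 0.588 and 0.313, and within T-ALL 0.156 and 0.262. Between response genes within T-ALL, the most negative value was that of DUSP1 and ZFP36L2 (-0.915). The most positive was that of KLF9 and ZFP36L2 (0.719), with KLF9 near the floor. FKBP5 and TSC22D3 correlated at -0.453 over 13 lines, -0.0911 without Nalm16 and Nalm30 and -0.0688 within T-ALL. These are descriptions over lines that share lineage and whose arrays are in part closely alike. Nalm16 and Nalm30 held the top 2 places for TSC22D3 and BTG1 and were within the top 3 for DUSP1. Molt4 and Jurkat were among the 3 lowest receptor-expressing lines and held the 2 lowest levels of TSC22D3 and of BTG1. ALL-SIL had the most FKBP5 and nearly the least DUSP1.

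Genes around the receptor were compared between the lineages by list. Over all genes tested 3.96% were higher and 3.67% lower in T-ALL, and the counts of each list are to be read against these shares. The lists were chosen with earlier results of these data known, so a count above its share, here and below, is a description. An unadjusted limma p under 0.05 was found for 3173 of all 12560 genes, and the unadjusted counts below are to be read against that. Of 13 receptor chaperones and cochaperones, 1 rose in T-ALL, none fell, and 12 did not pass, close to the 7.63% called over all genes. PPID, the cyclophilin of the receptor complex, was 0.83 higher (SE 0.201, limma adjusted p = 0.0232). FKBP4, the cochaperone that favours hormone binding and movement to the nucleus, was 4.17 in Nalm6 and 5.47 in RS4,11 and 7.77 to 10.19 in the other 11 lines, and its lineage difference of 1.81 did not pass (limma adjusted p = 0.163). HSP90AA1 differed by 0.40 (limma adjusted p = 0.141) and DNAJA1 by 0.46 (limma adjusted p = 0.291). The median difference of the list was 0.28, against 0.03 over all genes.

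Of 19 coregulators, 1 fell in T-ALL and 18 did not pass, again near the 7.63% over all genes. CREBBP, an acetyltransferase coactivator that is recurrently mutated in relapsed ALL, was at 8.73 to 9.46 in BCP-ALL and 7.62 to 8.57 in T-ALL (-0.85, SE 0.173, limma adjusted p = 0.00881). The coactivators NCOA1 (0.81, limma adjusted p = 0.0987) and MED1 (0.69, limma adjusted p = 0.141) and the corepressor subunit TBL1XR1 (0.72, limma adjusted p = 0.185) did not pass. Of 5 genes kept for other steroid receptors and steroid handling, NR3C2 and ESR1 among them, none passed (limma). The 1 under an unadjusted limma p of 0.05 was NR3C2, with the limit given above. ABCB1, the efflux pump that carries steroids, differed by -0.17 (limma adjusted p = 0.652), and CYP3A5, which oxidises them, by 0.06 (limma adjusted p = 0.848). Both were weak, ABCB1 at 4.87 to 6.07 in BCP-ALL and 4.89 to 5.47 in T-ALL, and CYP3A5 at 4.82 to 5.36 and 4.81 to 5.70. At such levels a small difference says little.

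Of 29 further glucocorticoid-induced genes, 1 rose and 4 fell in T-ALL, against 3.96% and 3.67% of all genes, with a median difference of -0.49 against 0.03. These counts include SLA, the 1 that rose, and FOXO1, both with the limits given below. FOXO1, a transcription factor central to B-cell precursors, was at 7.55 to 9.55 in BCP-ALL and near the floor, at 4.01 to 4.81, in T-ALL. It passed the filter through BCP-ALL alone, so its difference of -4.01 (limma adjusted p = 9.15e-07) is given as a description. The metallothionein MT1X differed by -1.96 (limma adjusted p = 0.0265) and the insulin receptor substrate IRS2 by -2.53 (limma adjusted p = 0.0332). The corepressor TLE4, named after its values were seen, differed by -2.76 (limma adjusted p = 0.0423). SLA, an adaptor that dampens antigen receptor signalling, differed by 4.73 (limma adjusted p = 0.000173). RS4,11 was the BCP-ALL line with SLA at 8.21, while the other 5 were near the floor at 4.0 to 4.71. SLA could not have passed the filter without the T-ALL lines, where it was at 8.69 to 10.39. Its difference too is therefore given as a description. The B-cell and T-cell markers above differ along the same contrast, and their part in these counts was not tested.

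Of 16 genes linked to steroid resistance in ALL, 3 fell in T-ALL and none rose, against 3.67% and 3.96% of all genes. They were CREBBP, CELSR2 (-1.36, SE 0.287, limma adjusted p = 0.0108) and the antiapoptotic BCL2 (-1.74, SE 0.396, limma adjusted p = 0.0166). The chromatin remodelling subunit SMARCB1 differed by -0.65 (limma adjusted p = 0.0538). Of 15 circadian clock genes, listed because PER1 belongs to the clock, none passed (limma, 4 under an unadjusted p of 0.05). BHLHE40 differed by 2.35 (limma adjusted p = 0.0539), PER2 by -0.59 (limma adjusted p = 0.121) and CRY1 by 0.59 (limma adjusted p = 0.163). RORA, counted among the 4, was at 4.0 to 5.29 in BCP-ALL and 4.46 to 7.87 in T-ALL. It passed the filter through T-ALL lines alone, so its difference of 1.76 (limma adjusted p = 0.0596) is given as a description.

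Paralogs allowed the lineage differences to be placed within gene families. Of 13 paralogs, 2 fell in T-ALL, against 3.67% of all genes. ZFP36L1, the close relative of ZFP36L2, was at 9.02 to 11.49 in BCP-ALL and 6.62 to 8.13 in T-ALL (-3.08, SE 0.445, limma adjusted p = 0.000784), whereas ZFP36L2 itself did not pass. TSC22D4 was at 7.37 to 8.70 and 6.99 to 7.71 (-0.95, SE 0.203, limma adjusted p = 0.0123). BTG3 differed by 2.36 (limma adjusted p = 0.156). Like TSC22D3 and BTG1, ZFP36L1 was highest in Nalm16 (11.49) and Nalm30 (11.43).

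DUSP1 is also an immediate-early gene, so 18 expressed genes of that class were read beside it. None passed between the lineages (limma, 5 under an unadjusted p of 0.05), with a median difference of -0.22, and their mean level per line was 7.42 to 8.27 in BCP-ALL and 7.13 to 8.55 in T-ALL. The members with the smallest p were IER3 (1.89, limma adjusted p = 0.0618), MYC (-0.61, limma adjusted p = 0.130), DUSP6 (-1.94, limma adjusted p = 0.168) and FOSL2 (-1.46, limma adjusted p = 0.173). Their correlations with DUSP1 over the 13 lines ran from -0.742 (IER3) to 0.678 (MYC).

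**Figure D4:**
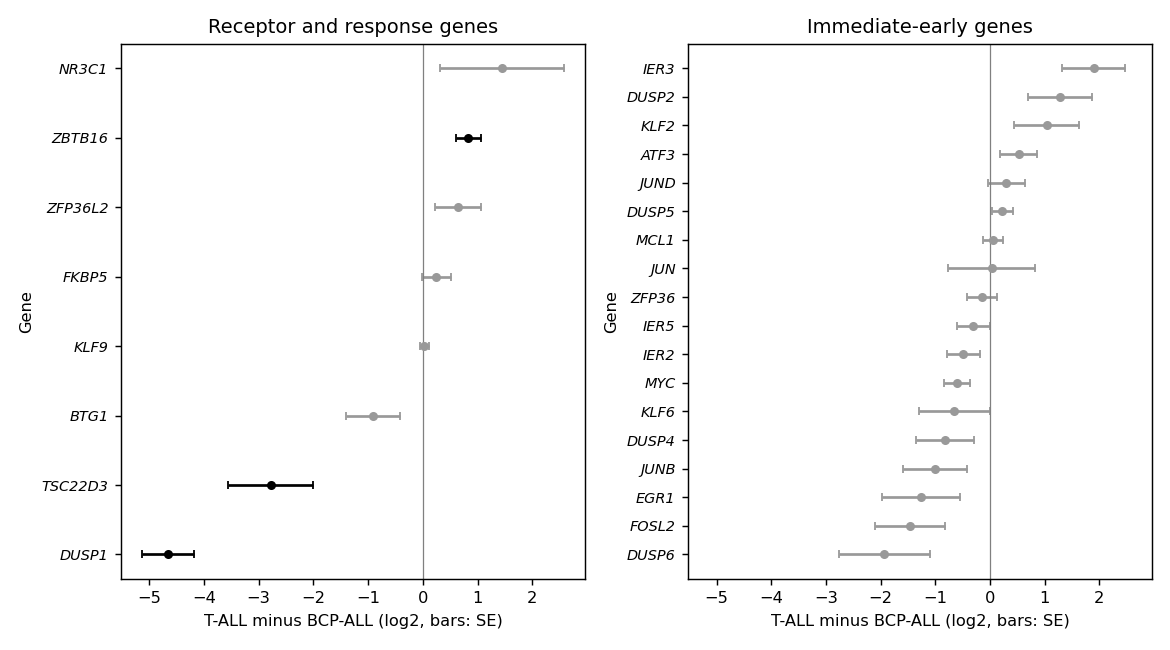
Difference in level between lineages (horizontal axes, T-ALL minus BCP-ALL, log2 units, bars for SE) for the receptor and its response genes (left) and for 18 immediate-early genes (right), black where the limma adjusted p was under 0.05 and grey otherwise. DUSP1 at -4.65, TSC22D3 at -2.78 and ZBTB16 at 0.83 (near the floor in BCP-ALL) are black, and all 18 immediate-early genes are grey.

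The genes whose pattern over the 13 lines was most like that of NR3C1, by Pearson's r, were LOC100190986 (0.968), C1GALT1C1 (0.964), DPY19L3 (0.961), SMG1P5 (0.953) and ZNF107 (0.952). The most opposed were RPP25 (-0.978), ZFYVE26 (-0.962), DDX25 (-0.960), ISCA2 (-0.959) and AREL1 (-0.953). Each of these 10 genes separates Nalm16 and Nalm30 from the other 11 lines. DPY19L3, for example, was at 4.0 in both and at 6.84 to 7.99 elsewhere, and RPP25 was at 9.76 and 9.82 there and at 4.02 to 6.14 elsewhere. Over the 11 receptor-expressing lines the most similar genes were FMO4 (0.862) and CXXC5 (0.831) and the most opposed were SAR1B (-0.937) and PIN4 (-0.908), so of the 10 genes above only LOC100190986 (0.820) was again among the nearest.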

How the data were processed

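The authors deposited log2 values made with the iterPLIER+16 algorithm from HG-U133 Plus 2.0 arrays; the submitters' notes name Affymetrix Expression Console, with a version not given in the sources used here. Labels and methods differ on how cells were kept before extraction and on the RNA kit. Scaling between arrays is not stated, and array medians ran from 5.05 to 5.37. Of 42450 probe sets, 38125 have 1 symbol in the platform annotation, 1742 several and 2583 none listed. Each of 18568 genes took its single-symbol probe set with the highest mean, and 12560 genes above the median of their array in at least 3 lines were kept for fits.

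Lineage and the slope on NR3C1 were fitted over all genes kept with limma 3.58.1 (lmFit, eBayes; R 4.3.3), and a Benjamini-Hochberg adjusted p under 0.05 was a call. Exact permutation tests were two-sided, and correlation tests over 10 or more lines used 100000 resamples (Python 3.11.15, numpy 2.4.6, scipy 1.17.1, pandas 2.3.3, matplotlib 3.10.9). The fits were tested on simulated data. With 1 array per line, p-values reflect how lines vary among themselves, and precision is limited by how many arrays there are.

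The named genes are the 9 listed, up to 4 of each list with the smallest p between lineages, and the 5 most positive and 5 most negative in r with NR3C1, with exceptions named. Members and lists were chosen with earlier results of these data known. Alternatives covered the filter, normalization, variance model, probe set, related lines and each line left out. Averaging P12-ICHIKAWA and TALL-1 in the correlations, the other probe sets against NR3C1 and the nearest genes over 11 lines were added after seeing the data. Promoter windows came from RefSeq (GRCh38.p14).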

Additional observations from a re-analysis of the deposited data

How the results depend on the processing

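DUSP1 kept its direction and its call in 21 of 22 alternatives, the exception being a probe set that stayed at 4.98 to 5.54 in all lines. TSC22D3 kept its direction in all 22 and its call in 9 (adjusted p 0.0127 to 0.982), and ZBTB16 its direction in all 20 and its call in 6 (adjusted p 0.0216 to 0.124). Of the 7 genes, 1 was called with no filter, with P12-ICHIKAWA and TALL-1 averaged, and without Nalm16 and Nalm30, and 1 to 2 with single lines left out. Genes called between lineages over the whole array were 610 with P12-ICHIKAWA and TALL-1 averaged and 609 (without TALL-1) to 1223 with single lines left out. Genes called on NR3C1 were 0 without Nalm16 and Nalm30 and 279 (without Nalm16) to 3584 with single lines left out, with 1141 without Nalm30. None of the 6 response genes was called on NR3C1 in any alternative. Apart from the shared dependence on those lines, the cause was not tested. No paired analysis was possible because each array is a different line with no partner in the other lineage. No value was had for a correlation within BCP-ALL, with 4 lines above the floor. Levels near the floor of 4 or little above it limit what can be said of ZBTB16, KLF9, NR3C2, ABCB1 and CYP3A5, and of TSC22D3 in Jurkat and Molt4.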
